A study of Mus musculus with 8 samples.

Results

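The genes described here encode the protein phosphatases of sperm, their regulatory subunits and inhibitors, and the kinases that act on 1 of these inhibitors. They were chosen by symbol and are 9 of the 19906 genes of the table: Ppp1cc, Ppp1r2, Ppp1r7, Ppp1r11, Ppp3cc, Ppp3r1, Ppp3r2, Gsk3a and Gsk3b. RNA of whole testis came from 4 Tmem232-/- mice and 4 Tmem232+/+ mice, all aged 2 months, with 1 library for each mouse. The Tmem232-/- mice carry a deletion made with CRISPR-Cas9 guides in introns 4 and 8 of Tmem232 in C57BL/6 oocytes, in every cell of the body and not in germ cells alone. No other allele, treatment or time point was named for either group. The study asked how loss of TMEM232 alters sperm and male fertility.

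Protein phosphatase 1 (PP1) removes phosphate from serine and threonine, and its gamma 2 form, made from Ppp1cc by alternative splicing, is the main PP1 of sperm. Inhibitor 2 (Ppp1r2), SDS22 (Ppp1r7) and inhibitor 3 (Ppp1r11) bind and restrain it, and the kinase GSK3 (Gsk3a and Gsk3b) phosphorylates inhibitor 2. Calcineurin is a phosphatase switched on by calcium and calmodulin. Its sperm form pairs the catalytic subunit of Ppp3cc with the regulatory subunit of Ppp3r2, which takes the place of the widely expressed Ppp3r1, and it is needed for a flexible sperm midpiece.

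Total counts lay between 15428421 and 16350871 per library. Tmem232 itself had 122 to 148 counts per 1000000 counts (CPM, scaled between libraries by the TMM method) in the libraries labelled Tmem232-/- and 106 to 111 in the others, and it was itself called higher under the Tmem232-/- label (log2 fold change 0.27, adjusted p = 0.034 in edgeR). The call held in 11 of 16 alternatives and was lost, among others, when 1 of 4 mice was left out, namely mouse 1 or mouse 2 with the Tmem232-/- label, and mouse 2 or mouse 4 with the other (adjusted p from 0.086 to 0.089). The count covers the whole gene, of which the deletion takes only some exons, so it can stay high in a knockout and checked nothing about the deleted part. It is therefore no check of the labels, and every direction below follows them. The first principal component (53.5% of the variance) separated the labels, and replicate 3 labelled Tmem232+/+ stood apart on the second (14.2%). Germ cell, Sertoli and Leydig markers were detected. The 5 epididymal markers in the table were uneven between mice. They summed to 32.5 CPM in replicate 1 and 11.2 CPM in replicate 3 labelled Tmem232+/+, and to 6.59 CPM in replicate 1 labelled Tmem232-/-. In every other library the sum was at most 1.41 CPM, and the origin of this RNA was not tested. Replicates are separate mice, and the labels give no litter or batch.

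Whether the counting could tell genes from their relatives was examined first for some pairs, with coding sequences of the GENCODE annotation (GRCm38). The pairs were Ppp1cc and its copy Ppp1ccb, Ppp3r1 and Ppp3r2, and Gsk3a and Gsk3b. Ppp1r2, Ppp1r7, Ppp1r11 and Ppp3cc were not compared with relatives in this way, nor was Ppp1cc with Ppp1ca and Ppp1cb. Ppp1cc lies at chr5:122158278-122175273 on the plus strand. Its transcripts Ppp1cc-201 and Ppp1cc-202 share their first 943 coding bases and then part, giving proteins of 337 and 323 residues, the gamma 2 and gamma 1 forms. The ends of both are shown because this is where the sperm form differs, and a stretch of the gene Ppp1ccb is set below them. Lower case marks the bases before the forms part (from coding base 923, 5′ to 3′, without the stop codon), and capitals mark the bases after that point.
Ppp1cc-201: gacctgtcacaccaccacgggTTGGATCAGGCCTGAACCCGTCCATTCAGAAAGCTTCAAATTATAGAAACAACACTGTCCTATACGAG
Ppp1cc-202: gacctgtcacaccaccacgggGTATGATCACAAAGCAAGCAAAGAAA
Ppp1ccb-202: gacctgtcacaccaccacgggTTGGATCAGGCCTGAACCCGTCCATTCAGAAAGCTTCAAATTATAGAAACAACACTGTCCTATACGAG

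Ppp1ccb (chr7:119739926-119742226, plus strand) is a copy of the gamma 2 message, annotated by GENCODE as a transcribed processed pseudogene. Its transcript holds all 1011 coding bases of Ppp1cc-201 at 100% identity. Of the 1393 windows of 50 bases in Ppp1cc-201, 97.2% occur unchanged in Ppp1ccb-202, against 55.9% for Ppp1cc-202. The table gives 1 count per gene, so the gamma 1 and gamma 2 forms could not be separated, and reads within the shared windows cannot be assigned to Ppp1cc or Ppp1ccb by their sequence.

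The regulatory subunits of calcineurin, in contrast, share no such windows. Ppp3r1 (chr11:17159263-17200375, plus strand, 170 residues) and Ppp3r2 (chr4:49678747-49682024, minus strand, 179 residues) share 80.6% of 170 aligned residues but no window of 50 coding bases. A stretch of 90 coding bases from base 28 of each is shown, with capitals at the 26 bases that differ.
Ppp3r1: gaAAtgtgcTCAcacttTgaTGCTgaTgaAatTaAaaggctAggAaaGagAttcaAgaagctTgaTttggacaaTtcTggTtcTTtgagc
Ppp3r2: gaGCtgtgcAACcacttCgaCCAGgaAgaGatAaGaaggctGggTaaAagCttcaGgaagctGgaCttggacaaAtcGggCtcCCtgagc

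The same holds for the GSK3 kinases. Gsk3a (chr7:25228258-25237851, minus strand, 490 residues) and Gsk3b (chr16:38089001-38246084, plus strand, 433 residues) share 74.9% of 419 aligned residues and no window of 50 coding bases. A stretch of 90 bases is shown from coding base 295 of Gsk3a and coding base 106 of Gsk3b, with capitals at the 25 bases that differ. These kinases carry the main difference reported below.
Gsk3a: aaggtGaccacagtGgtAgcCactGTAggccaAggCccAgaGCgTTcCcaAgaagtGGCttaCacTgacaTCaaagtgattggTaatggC
Gsk3b: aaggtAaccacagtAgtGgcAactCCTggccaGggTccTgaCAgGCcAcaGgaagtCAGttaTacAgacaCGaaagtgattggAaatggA

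The remaining genes are Ppp1r2 (chr16:31251537-31275277, minus strand), Ppp1r7 (chr1:93342854-93373489, plus strand), Ppp1r11 (chr17:36948356-36951741, minus strand) and Ppp3cc (chr14:70217865-70289471, minus strand). Some exons overlap those of other genes. Ppp1r7 overlaps Pask on the opposite strand, which had 1886 to 3343 counts per library against 1046 to 1196 for Ppp1r7. Ppp3r1 overlaps Wdr92 on the same strand (552 to 750 counts), and Gsk3a and Ppp3cc each overlap an antisense transcript. The kit named in the labels does not mark the strand of a read, so reads in these overlaps could not be told apart.

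All 9 genes passed the filter on low counts, and 1 of them, Gsk3b, differed between the labels at an adjusted p under 0.05. It was higher in the libraries labelled Tmem232-/-, and 0 of the 9 were lower. Over all 15787 tested genes, 10.3% were called higher and 1.46% lower, or 11.8% in either direction, so that 1 of 9 is close to the background. At an unadjusted p under 0.05 the edgeR fit gave 2 higher and 0 lower, against 14.6% and 10.5% of all tested genes, and DESeq2 and limma-voom each called 1 higher and 0 lower. The median log2 fold change was 0.07 over the 9 genes and -0.05 over all tested genes. Of the 9, 6 lay above 0, as did 6187 of all 15787 tested genes.

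**Figure D1:**
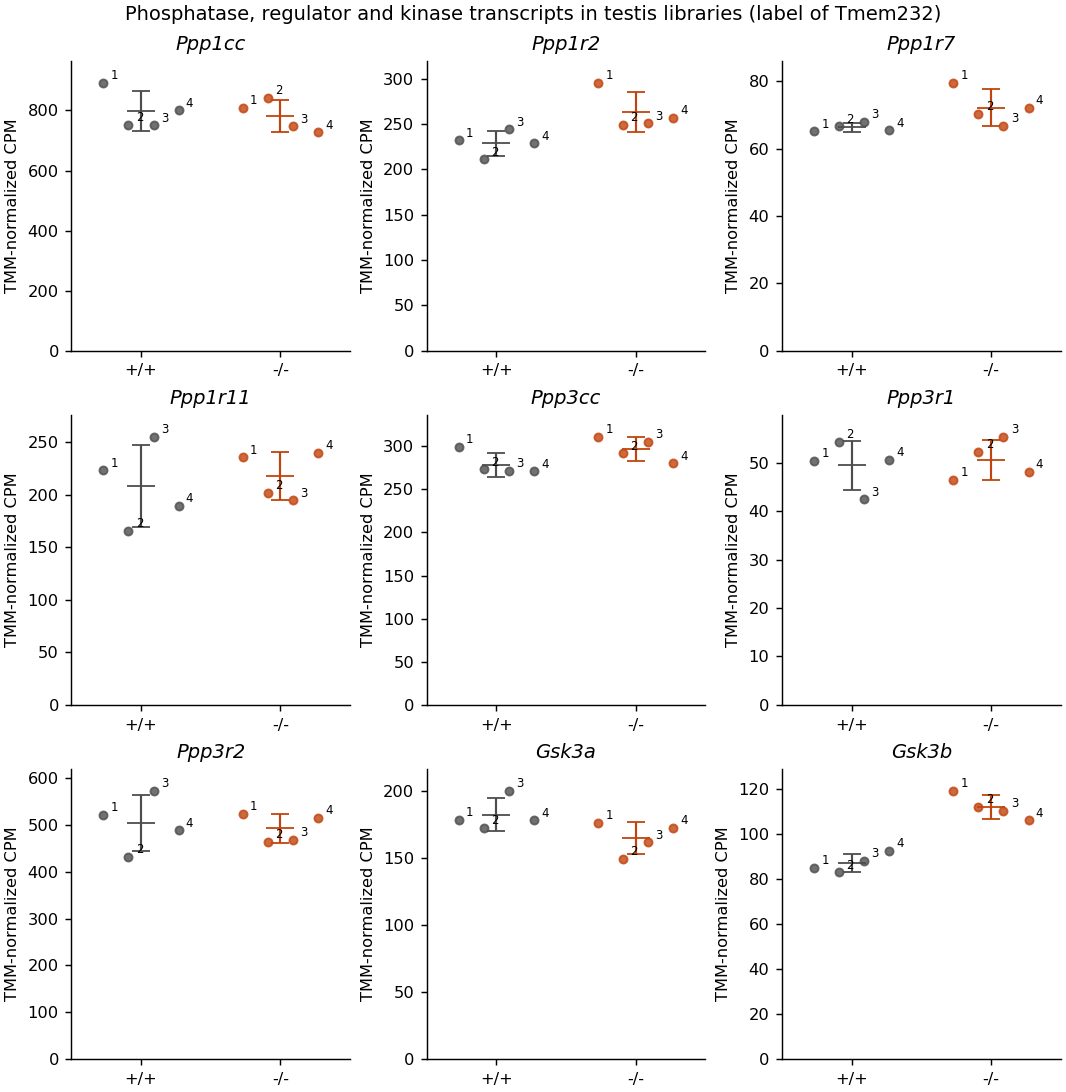
TMM-normalized CPM of each gene (y axes, from 0) in the 4 libraries labelled Tmem232+/+ (grey) and the 4 labelled Tmem232-/- (orange); points are libraries with their replicate number, and bars give the mean and SD. The labels overlapped for 7 genes and were apart for Ppp1r2 and Gsk3b, with all libraries labelled Tmem232-/- above the others.

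Ppp1cc, the catalytic subunit, was the most abundant of the 9 genes and differed little between the labels. It had 809, 842, 747 and 727 CPM in mice 1 to 4 labelled Tmem232-/-. Mice 1 to 4 labelled Tmem232+/+ had 893, 751, 749.9 and 800.4 CPM. The ranges overlapped widely, and replicate 1 labelled Tmem232+/+ was the highest of all. The means were 781 ± 53.6 and 798.5 ± 67.0 (SD, n = 4 each). The log2 fold change of -0.03 had a 95% interval from -0.21 to 0.14, with an adjusted p of 0.84 (quasi-likelihood test of edgeR, adjusted by Benjamini-Hochberg over all tested genes, as for every adjusted p below that names no other test). The estimate turned positive without replicate 4 labelled Tmem232-/- (0.01) or replicate 1 labelled Tmem232+/+ (0.07), so it has no direction in these data.

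The division of counts between Ppp1cc and its copy varied more than their sum. Ppp1ccb held 28.1%, 14.1%, 23.9% and 27.4% of the counts of both in mice 1 to 4 labelled Tmem232-/-. In mice 1 to 4 labelled Tmem232+/+ it held 16.3%, 17.9%, 33.0% and 19.1%. Replicate 3 labelled Tmem232+/+ had the largest share given to Ppp1ccb and replicate 2 labelled Tmem232-/- the smallest, so the labels overlapped. This overlap rested on these libraries. The remaining shares were 23.9% to 28.1% under the Tmem232-/- label and 16.3% to 19.1% under the other. With both counts summed, the level was 1022 ± 69.4 CPM under the Tmem232-/- label and 1022 ± 89.1 CPM under the other (SD, n = 4 each; p = 1.0 by exact permutation). Ppp1ccb alone gave a log2 fold change of 0.11 with a 95% interval from -0.52 to 0.73 (adjusted p = 0.84), wider than the interval of any of the 9 genes.

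**Figure D2:**
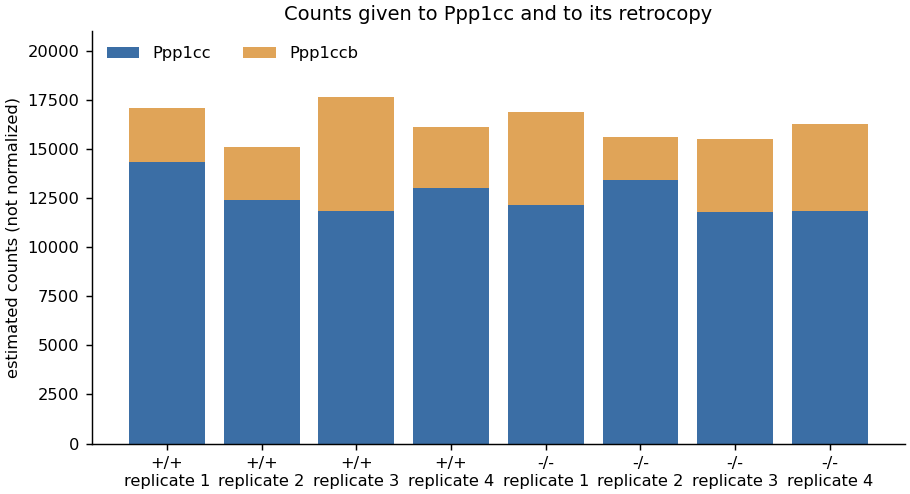
Deposited counts (y axis, estimated counts without normalization) of Ppp1cc (blue) and of its copy Ppp1ccb (sand, stacked on top) in each library (x axis). The sand part made up between 14.1% and 33.0% of a bar, and the extremes lay under different labels.

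Of the PP1 regulators, inhibitor 2 came closest to the threshold. Ppp1r2 had 296, 249, 251 and 257 CPM in mice 1 to 4 labelled Tmem232-/-. It had 232, 211, 244 and 229 CPM in mice 1 to 4 labelled Tmem232+/+. All libraries labelled Tmem232-/- were above the others, as was the case for 11.8% of the tested genes, while 6.88% had all of them below. The means were 263 ± 22.0 and 229 ± 13.7 (SD, n = 4 each; p = 0.029 by exact permutation, the smallest that 4 against 4 allow). The log2 fold change was 0.20 (95% interval 0.03 to 0.37) and did not pass, with an adjusted p of 0.13. Without replicate 3 labelled Tmem232+/+, the library that stood apart, it was 0.26 with an adjusted p of 0.043, the only edgeR fit that called a gene beside Gsk3b. Without replicate 1 labelled Tmem232-/-, its highest library, the log2 fold change fell to 0.14 (adjusted p = 0.29).

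The genes of SDS22 and inhibitor 3 did not pass the test. Ppp1r7 had 79.6, 70.2, 66.7 and 72.2 CPM in mice 1 to 4 labelled Tmem232-/- and 65.2, 66.6, 67.95 and 65.4 CPM in mice 1 to 4 labelled Tmem232+/+. Only replicate 3 labelled Tmem232-/- fell within the range of the other label, and the log2 fold change was 0.12 (95% interval -0.03 to 0.27, adjusted p = 0.29), or 0.07 without replicate 1 labelled Tmem232-/-. Ppp1r11 was the most scattered of the 9 genes. It had 236, 202, 195 and 240.0 CPM in mice 1 to 4 labelled Tmem232-/- and 223.5, 166, 255.5 and 189.6 CPM in mice 1 to 4 labelled Tmem232+/+. The libraries labelled Tmem232-/- lay within the range of the others, with a log2 fold change of 0.07 (95% interval -0.22 to 0.35, adjusted p = 0.78). This value went from -0.03 without replicate 2 to 0.21 without replicate 3 labelled Tmem232+/+, so its sign rested on single mice.

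The subunits of calcineurin also overlapped between the labels. Ppp3cc, its sperm catalytic subunit, had 311, 292, 305 and 280.3 CPM in mice 1 to 4 labelled Tmem232-/- and 299.5, 273, 271 and 270.9 CPM in mice 1 to 4 labelled Tmem232+/+. Replicate 1 labelled Tmem232+/+ lay among the libraries of the other label, and the remaining 3 lay below them all. The means of 297 ± 13.8 and 279 ± 13.9 (SD, n = 4 each) gave a log2 fold change of 0.09 (95% interval -0.05 to 0.24, adjusted p = 0.41). Without replicate 1 labelled Tmem232+/+ it was 0.17 and still did not pass, with an adjusted p of 0.19. Without replicate 1 labelled Tmem232-/- the log2 fold change was 0.07 (adjusted p = 0.61).

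Ppp3r2, the sperm regulatory subunit, had 525, 464, 469 and 516 CPM in mice 1 to 4 labelled Tmem232-/- and 523, 432, 574 and 489 CPM in mice 1 to 4 labelled Tmem232+/+. Its highest and lowest libraries were both labelled Tmem232+/+, and the log2 fold change was -0.03 (95% interval -0.23 to 0.17, adjusted p = 0.86). Ppp3r1, the widely expressed subunit, had 46.5, 52.3, 55.4 and 48.1 CPM in mice 1 to 4 labelled Tmem232-/- and 50.4, 54.4, 42.4 and 50.6 CPM in mice 1 to 4 labelled Tmem232+/+. Its log2 fold change was 0.03 (95% interval -0.16 to 0.23, adjusted p = 0.85). Left-out mice turned the sign of both. That of Ppp3r2 became positive without replicate 1 (0.02) or replicate 3 (0.07) labelled Tmem232+/+, and that of Ppp3r1 negative without replicate 3 of either label (-0.015 and -0.004).

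Gsk3b was the 1 gene of the 9 whose difference between the labels passed the test. It had 119, 112, 110.4 and 106 CPM in mice 1 to 4 labelled Tmem232-/-. It had 85.05, 83.1, 88.2 and 92.5 CPM in mice 1 to 4 labelled Tmem232+/+. The labels were well apart, with the lowest library labelled Tmem232-/- above the highest of the others. The means were 112 ± 5.47 and 87.2 ± 4.11 (SD, n = 4 each), a level 28.4% higher. The log2 fold change was 0.36 (standard error 0.065, 95% interval 0.22 to 0.50, adjusted p = 0.0027). It ranked 928 among the 15787 tested genes by p and passed under every alternative run, with log2 fold changes from 0.31 to 0.40.

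Gsk3a, which encodes the other GSK3 kinase and is required for male fertility in mice, did not pass the test. It had 176, 149, 162 and 172 CPM in mice 1 to 4 labelled Tmem232-/- and 178.5, 173, 200.1 and 178 CPM in mice 1 to 4 labelled Tmem232+/+. The means were 165 ± 12.15 and 182 ± 12.1 (SD, n = 4 each), and replicate 1 labelled Tmem232-/- reached the range of the other label. The log2 fold change of -0.15 had a 95% interval from -0.31 to 0.02 (adjusted p = 0.26). It was negative in every alternative run, from -0.18 to -0.07, and passed in none.

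**Figure D3:**
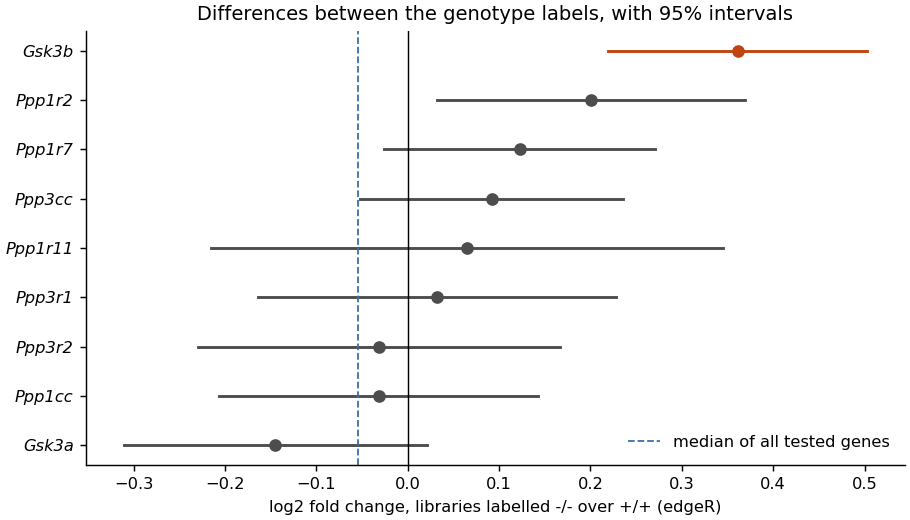
Log2 fold change of each gene, libraries labelled Tmem232-/- over those labelled Tmem232+/+ (x axis), from edgeR; points are estimates, bars are 95% intervals, orange marks an adjusted p under 0.05, and the dashed line is the median of all tested genes at -0.05. The interval of Gsk3b, from 0.22 to 0.50, lies to the right of that of Gsk3a, from -0.31 to 0.02.

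Since levels of different genes can be compared only per length, FPKM (fragments per kilobase of transcript and 1000000 fragments) was used to order the genes. In the libraries labelled Tmem232+/+, Ppp1cc led with 553 ± 38.3 FPKM (SD, n = 4), above 99.6% of all genes of the table by its mean over the 8 libraries. Ppp3r2 (181 ± 20.95), Ppp3cc (164.5 ± 9.40) and Ppp1r11 (140.0 ± 25.9) followed, and the ranges of neighbours in this order overlapped. Gsk3a (97.9 ± 7.76) and Ppp1r2 (59.4 ± 3.51) came next, each apart from its neighbours. Ppp1r7 (19.3 ± 0.72) and Ppp3r1 (18.8 ± 1.95) overlapped, and Gsk3b was the lowest with 11.6 ± 0.66 FPKM. Ppp1cc, Ppp3r2 and Ppp3cc thus took the first 3 places, and the level of Ppp1cc includes both of its forms but excludes what the counting gave to Ppp1ccb (173 ± 76.6 FPKM).

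Ppp1cc, as a gene total of its gamma 1 and gamma 2 forms, Ppp3cc and Ppp3r2 each exceeded their widely expressed paralogs within every library. Among PP1 catalytic subunits, Ppp1ca had 47.8 ± 3.91 and Ppp1cb 41.25 ± 7.75 FPKM in the libraries labelled Tmem232+/+, and Ppp1cc was between 5.32 and 7.53 times their sum over all 8 libraries. Among calcineurin catalytic subunits, Ppp3ca had 54.3 ± 5.76 and Ppp3cb 15.8 ± 0.37 FPKM in the libraries labelled Tmem232+/+. Ppp3r2 was between 7.51 and 12.8 times Ppp3r1. None of these 4 paralogs passed the test between the labels, with log2 fold changes from -0.19 for Ppp1ca to -0.03 for Ppp3cb and adjusted p-values from 0.22 to 0.89.

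**Figure D4:**
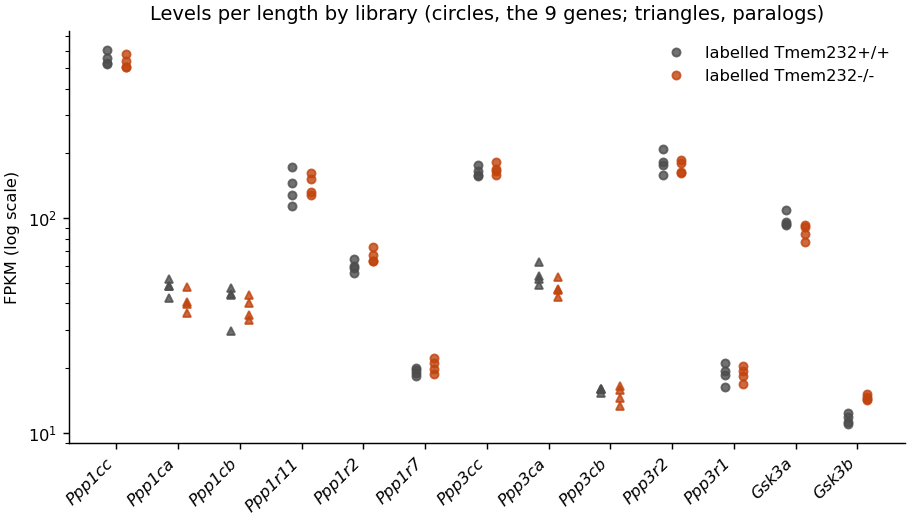
FPKM on a log scale (y axis) in each library for the 9 genes (circles) and the catalytic paralogs of PP1 and calcineurin (triangles), by label (grey, Tmem232+/+; orange, Tmem232-/-). Ppp1cc lies highest, between 502 and 605 FPKM, and Gsk3b is the lowest of the 9 genes in every library, between 10.9 and 15.1.

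Ratios within a library do not depend on how libraries are scaled, and 8 of them were compared. The ratio of Gsk3a to Gsk3b in FPKM was 6.01, 5.29, 5.85 and 6.48 in mice 1 to 4 labelled Tmem232-/-. It was 8.46, 8.38, 9.26 and 7.69 in mice 1 to 4 labelled Tmem232+/+. The labels did not overlap, and the mean log2 ratio differed by -0.52 (means 2.56 ± 0.12 and 3.08 ± 0.11, SD, n = 4 each; p = 0.029 by exact permutation). The adjusted p over the 8 ratios was 0.11, and with a smallest p of 0.029 a single ratio could reach no less than 0.23. Gsk3b thus made up a larger part of GSK3 messages in each library labelled Tmem232-/- than in any other. Gsk3a remained the more abundant, by at least 5.29 times in FPKM. The size of this excess rests on the transcript lengths behind FPKM. Mean CPM was 165 for Gsk3a and 112 for Gsk3b under the Tmem232-/- label, and 182 and 87.2 under the other. Taken from CPM, the log2 ratio differed by -0.51 (p = 0.029 by exact permutation).

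The ratio of Ppp3cc to the sum of Ppp3ca and Ppp3cb was also apart. It was 2.69, 2.69, 2.62 and 2.85 in mice 1 to 4 labelled Tmem232-/- and 2.56, 2.30, 2.28 and 2.265 in mice 1 to 4 labelled Tmem232+/+. The log2 ratio differed by 0.21 (p = 0.029 by exact permutation, adjusted p = 0.11 over the 8 ratios). Taken per read as a ratio of CPM, which leaves out transcript length, the difference was 0.23 and the labels overlapped (p = 0.057 by exact permutation). The separation of Ppp3cc from its paralogs thus depended on the unit, while the size of the difference did not.

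The other 6 ratios overlapped between the labels. The ratio of Ppp1r2 to Ppp1cc was 0.137, 0.109, 0.125 and 0.133 in mice 1 to 4 labelled Tmem232-/- and 0.0964, 0.105, 0.123 and 0.107 in mice 1 to 4 labelled Tmem232+/+ (difference of the log2 ratio 0.22; p = 0.057 by exact permutation). With Ppp1ccb added to Ppp1cc, a choice made after seeing the data, this difference was 0.19 and the exact permutation p 0.029. The ratio of Ppp3r2 to Ppp3r1 averaged 9.29 ± 1.30 and 9.80 ± 2.20 in the libraries labelled Tmem232-/- and Tmem232+/+, and that of Ppp1cc to its 2 paralogs 6.73 ± 0.72 and 6.28 ± 0.80 (SD, n = 4 each). The ratio of Ppp3r2 to Ppp3cc was near 1 in all libraries, from 0.99 to 1.18.

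**Figure D5:**
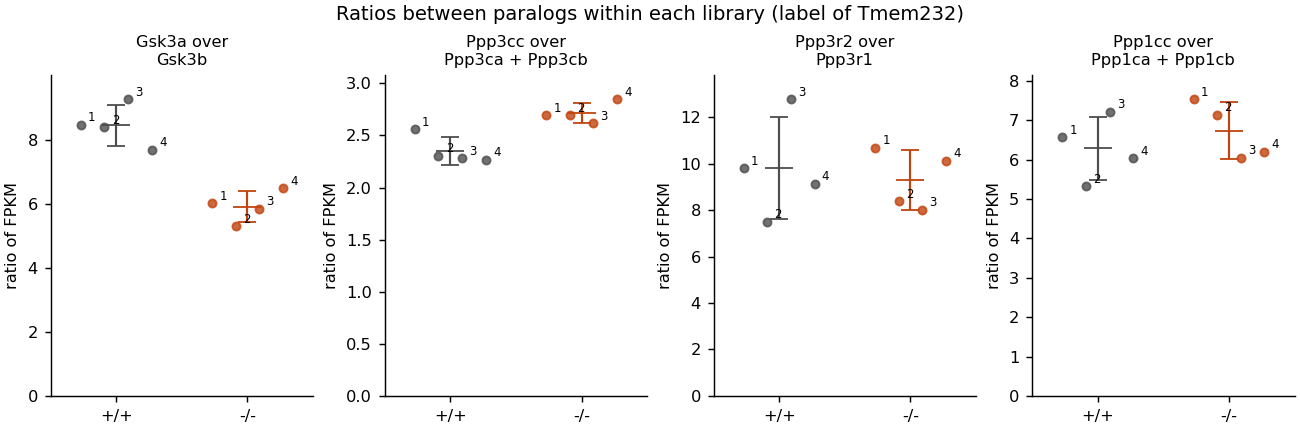
Ratio of FPKM between related genes (y axes, from 0) in each library labelled Tmem232+/+ (grey) or Tmem232-/- (orange); points are libraries with their replicate number, and bars give the mean and SD. The ratio of Gsk3a to Gsk3b was 7.69 or more in all libraries labelled Tmem232+/+ and 6.48 or less in all labelled Tmem232-/-.

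Within a label, several genes took their extremes in the same mice. Replicate 1 was the highest of the libraries labelled Tmem232-/- for 6 of the 9 genes. Among the libraries labelled Tmem232+/+, replicate 3 was the highest for 5 genes (Ppp1r2, Ppp1r7, Ppp1r11, Ppp3r2 and Gsk3a) and the lowest for Ppp1cc and Ppp3r1. Replicate 2 was the lowest there for 5 genes (Ppp1r2, Ppp1r11, Ppp3r2, Gsk3a and Gsk3b). For Ppp1cc, Ppp1r11, Ppp3r1 and Ppp3r2, the SD of CPM within either label exceeded the difference between the means of the labels.

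Markers of spermatids, and some of other cells, moved with the labels as well. Of 10 round spermatid markers 9 were called higher, and their summed level was 800.4 to 1005 CPM in the libraries labelled Tmem232-/- and 397 to 568 CPM in the others. Of 11 elongating spermatid markers 10 were called higher, with sums of 1627 to 2574 and 623 to 1159 CPM, and 0 were lower in edgeR (0 at an unadjusted p under 0.05, 0 in DESeq2 and 0 in limma-voom). Of 9 spermatogonial markers 4 were lower, with sums of 196.5 to 216 and 239 to 267 CPM, and of 10 spermatocyte markers 2 were lower (1 in limma-voom), with overlapping sums of 4450.0 to 5044 and 4564 to 4944 CPM. No defining marker of these 4 lists was at 0. Of 4 peritubular myoid markers 2 were lower, and their sums of 189 to 227 and 238 to 283 CPM did not overlap. Of 6 Leydig markers, 5 had higher values at an unadjusted p under 0.05, 0 were called in edgeR, 2 were called in DESeq2 and 1 in limma-voom, with sums of 398 to 566 and 252 to 433 CPM. In the libraries labelled Tmem232+/+, both spermatid sums were highest in replicate 3 and lowest in replicate 2, the same mice as for Ppp1r2, Ppp1r11, Ppp3r2 and Gsk3a. In the libraries labelled Tmem232-/- both sums were highest in replicate 1 and lowest in replicate 3, a pair of extremes that Ppp1r7 had and none of these 4 genes had. In whole testis, more cells of a type and more RNA per cell cannot be told apart, and the part of these cells in the values of Gsk3b and Ppp1r2 was not tested.

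The genes whose levels most resembled Gsk3b over the 8 libraries were Zp3r, which encodes an acrosomal protein (Pearson r of log2 CPM 0.996), Cpeb2, which encodes an RNA-binding protein (0.995), and Deup1, which encodes a protein of centriole assembly (0.994). All 3 were called higher, with log2 fold changes of 1.14, 0.50 and 0.86. Those most like Gsk3a were Mtx2 (0.990), Snrnp40 (0.986) and Alkbh8 (0.984), with log2 fold changes from -0.22 to -0.18, none of which passed. These are descriptions of 14994 genes searched over 8 libraries that share the 2 labels, so a shared difference between the labels raises r by itself.

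Of 32 other tested PP1 regulators, 3 were higher and 1 lower, with a median log2 fold change of -0.11. Over all tested genes, 10.3% were higher and 1.46% lower, with a median of -0.05, so these counts are close to the background. At an unadjusted p under 0.05 the balance of the list turned, with 5 higher and 7 lower, against 14.6% and 10.5% of all tested genes, and with log2(FPKM + 1) 2 were called higher and 3 lower. Ppp1r32, whose product binds PP1, was higher by 0.56 on the log2 scale (127 ± 14.4 to 187 ± 19.1 CPM, adjusted p = 0.0022), and Ppp1r42, another PP1-binding protein of testis, by 0.32 (adjusted p = 0.019). Ppp1r13l, which encodes an inhibitor of p53, was the lower one, with a log2 fold change of -0.20 (adjusted p = 0.047), and it lost the call in all 8 fits with a mouse left out. Ppp1r42 passed in 13 of 16 alternatives and lost the call, among others, without replicate 1 or 2 labelled Tmem232-/-, while Ppp1r32 passed in all 16. Of the 15 calcineurin catalytic subunits, regulators, anchors and targets, 0 were called in edgeR, DESeq2 or limma-voom and 0 had an unadjusted p under 0.05. Their median log2 fold change was -0.13, against -0.05 over all tested genes. Of the 15, 1 lay above 0, as did 6187 of all 15787 tested genes. This list included Spata33, which tethers calcineurin to sperm mitochondria (log2 fold change -0.11, adjusted p = 0.71).

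Of the 21 genes around GSK3, 2 were higher and 0 lower in edgeR, and DESeq2 and limma-voom also called 2 higher and 0 lower. At an unadjusted p under 0.05, 2 were higher and 4 lower, against 14.6% and 10.5% of all tested genes. Frat1, which encodes a GSK3-binding protein of the Wnt pathway, went from 25.5 ± 4.62 to 52.6 ± 7.21 CPM (log2 fold change 1.05, adjusted p = 0.0003). Lrp5, a Wnt co-receptor, went from 37.9 ± 5.28 to 55.2 ± 9.35 CPM (log2 fold change 0.54, adjusted p = 0.018, and 0.055 without replicate 2 labelled Tmem232-/-). The share called was again close to the 10.3% called higher over all tested genes, and nothing is read from the shared direction.

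Of 42 tested genes of other serine/threonine phosphatases (PP2A, PP4, PP5, PP6, PP2C and PPEF families), 7 were higher and 2 lower, against 10.3% and 1.46% of all tested genes, with a median log2 fold change of 0.07. At an unadjusted p under 0.05, 12 were higher and 7 lower, where 14.6% and 10.5% of all tested genes were. The largest differences were those of Ppp2r2b, a regulatory subunit of PP2A (log2 fold change 1.95, adjusted p = 0.0014), Ppm1j, a PP2C phosphatase (1.18, adjusted p = 0.00013), Ppef1, a phosphatase with EF hands (1.14, adjusted p = 0.00044), and Ppp4r3c-ps, listed as a pseudogene of a PP4 subunit (0.73, adjusted p = 0.030). Ppp2r2b was scarce, with 1.28 ± 0.69 and 4.93 ± 1.17 CPM in the libraries labelled Tmem232+/+ and Tmem232-/-. Ppp4r3c-ps passed in 8 of 16 alternatives and the other 3 in all. With log2(FPKM + 1) the log2 fold change was smaller, at 1.09 for Ppp2r2b and 0.44 for Ppp4r3c-ps. In the edgeR fit, none of the 9 genes had a log2 fold change as large as that of any of these 4 phosphatase genes. Without replicate 4 labelled Tmem232-/-, 11 genes of this list were higher, and the 2 lower calls fell to 0 without replicate 1 of either label.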

How the data were processed

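RNA-seq of testis from 4 Tmem232-/- and 4 Tmem232+/+ mice was analysed from 1 table with values of all 8 libraries, grouped by the labels. The submitters' processing notes name HISAT, Bowtie2, StringTie, featureCounts, DESeq2 and GRCm38.p6. The authors deposited estimated counts per gene without normalization, of which 10.7% to 11.2% per library are not whole, and these were rounded. Their FPKM, also deposited, are per kilobase and 1000000 fragments, as checked on 498 single-transcript genes. Columns holding the authors' own comparison (averages, log2 fold change, DESeq2 p-value and q-value) were not used.

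Counts were fitted in R 4.3.3 with edgeR 4.0.16 (default filter on low counts, TMM, quasi-likelihood test, no covariates, Benjamini-Hochberg over 15787 genes, threshold 0.05). CPM and log2 ratios of FPKM were compared by exact two-sided permutation over 70 arrangements, the ratios with Benjamini-Hochberg over 8. The counts behind the 9 genes were 670 or more in each library. Intervals are 95% intervals of the estimated log2 fold change, whose standard error includes the spread between mice. They are not ranges of single mice.

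The alternatives were DESeq2 1.42.0, limma-voom (limma 3.58.1), DESeq2's size factors, library size alone, no filter, at least 10 counts in every library, log2(FPKM + 1) with limma, a replicate block, each library left out and, added after seeing the data, Ppp1cc and Ppp1ccb summed. Ratios were also taken from CPM and with 1 FPKM added. The fits were run on simulated data, where the edgeR fit met the conditions set for it and DESeq2, for which none were set, made the largest share of false calls. Sequences, exons and shared windows came from GENCODE for GRCm38, with Python 3.11.15 and Biopython 1.88. For 2 genes, Gsk3a and Ppp3cc, the table lists another strand than GENCODE, whose strand is given.

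All 9 genes are named, with the catalytic paralogs, per list up to 4 called genes with the largest log2 fold change and a mean of at least 1 CPM, and the 3 genes most correlated with the genes of highest and lowest log2 fold change. Genes and lists were chosen with earlier results of these data known. Tmem232, Ppp1ccb and Spata33 are named beside this rule.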

Additional observations from a re-analysis of the deposited data

Results flagged for a closer look

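Of 36 groups of 4 libraries examined (9 genes, Ppp1ccb and 8 ratios, by label), 4 had a library far from the other 3, where about 1.8 are flagged by chance. Ppp1r2 had 296 CPM in replicate 1 labelled Tmem232-/-, with the other 3 between 249 and 257. Ppp3cc had 299.5 CPM in replicate 1 labelled Tmem232+/+, with the other 3 between 271 and 273, and the ratio of Ppp3cc to Ppp3ca and Ppp3cb was also high there, at 2.56 against 2.265 to 2.30. Ppp1ccb had 369 CPM in replicate 3 labelled Tmem232+/+, with the other 3 between 163 and 189.5, and its counts cannot be told from those of Ppp1cc over most of their length.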

How the results depend on the processing

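The call of Gsk3b and the absence of a lower call among the 9 genes held in all alternatives, and the log2 ratio of Gsk3a to Gsk3b stayed between -0.56 and -0.47. The other 8 genes stayed uncalled in all but 1 alternative: without replicate 3 labelled Tmem232+/+, 2 genes were called higher, Ppp1r2 (0.264) being the added one, and the range with a mouse left out was 1 to 2. Without a filter, the log2 fold changes of Ppp1cc (0.013) and Ppp3r2 (0.011) turned positive, and with library size alone that of Ppp3r1 was -0.002. With a mouse left out, the log2 fold change ran from -0.069 to 0.066 for Ppp1cc, from 0.073 to 0.165 for Ppp1r7, from -0.031 to 0.209 for Ppp1r11, from -0.015 to 0.083 for Ppp3r1 and from -0.099 to 0.068 for Ppp3r2. It ran from 0.14 to 0.264 for Ppp1r2 and from 0.069 to 0.168 for Ppp3cc. With log2(FPKM + 1), Ppp3cc gave 0.036. Alternatives were computed for few uncalled genes outside the set, and among these the sign turned for Spata33 (-0.226 to 0.092), Ppp1cb (-0.177 to 0.014), Ppp3cb (-0.08 to 0.06, and 0.019 without a filter) and Ppp1ccb (-0.052 to 0.487). The signs of the other uncalled list genes were not followed. The cause was not tested. The median log2 fold change of all tested genes moved between -0.087 with library size alone and 0.00 without a filter.

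Among the lists, DESeq2 called 11 other phosphatases higher (7 in edgeR), the calls of higher PP1 regulators fell from 3 to 1 with the replicate block (Ppp1r42 among the lost, adjusted p = 0.064) and also to 1 without replicate 1 labelled Tmem232-/-, and the lower calls of each list ran from 0 to at most 3.

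Over the whole table, 1633 genes were called higher and 1317 to 1865 in the alternatives. The count of lower genes, 230, was less stable: 131 with DESeq2's size factors, 415 with library size alone, 71 without a filter, 466 with log2(FPKM + 1), and 37 to 356 with a mouse left out. With the replicate block it was 28 (higher, 1317), and the adjusted p was 0.032 for Gsk3b and 0.114 for Tmem232. The log2 ratio of Gsk3a to Gsk3b differed by -0.516 within replicate numbers, where 4 pairs allow no p under 0.125. Correlations of same-numbered deviations were -0.061, 0.072, -0.332 and -0.105, and those of differently numbered mice ran from -0.316 to 0.393. They gave no sign of pairing by replicate number but cannot settle it, as the labels name no litter or batch. For the 8 uncalled genes, differences as large as the limits of their 95% intervals remain possible with 4 mice per label.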
